A study of Mus musculus with 10 samples.

Results

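The genes described here encode high-numbered zinc finger proteins. They were chosen by name: autosomal protein-coding genes whose symbol in the peak tables lies between Zfp700 and Zfp999. Of 14066 autosomal protein-coding genes listed with a peak and a symbol, 43 met the rule. H4K20me1 peaks were listed for 21 of them and peaks of RNA polymerase II phosphorylated on serine 2 of its tail (Pol II S2P) for 33, with 11 genes listed for both marks, 10 for H4K20me1 alone and 22 for Pol II S2P alone. The 43 genes lie on 13 chromosomes, with 10 on chromosome 7, 10 on chromosome 17 and 8 on chromosome 8. They are 3.51 to 87.0 kb long, with a median of 17.9 kb.

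The libraries came from cultured muscle stem cells (MuSCs, satellite cells) of tamoxifen-treated adult C57BL/6 mice. Control cells (Ctrl) carried Pax7CreERT/Suv4-20h1WT and mutant cells (Kmt5b sKO) carried Pax7CreERT/Suv4-20h1KO, where Suv4-20h1 is the older name of Kmt5b, so both genotypes carried the tamoxifen-inducible Cre driven by Pax7 and the deletion was directed to satellite cells. CUT&RUN cuts and releases chromatin fragments at sites bound by an antibody, and each genotype had 2 libraries for H4K20me1 and 2 for Pol II S2P, described by the study as biological replicates. How many animals stood behind a library, and their age and sex, are not given in the labels, so the p-values below measure the spread between these libraries.

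C2H2 zinc finger proteins bind DNA through repeated fingers, each folded around a zinc ion held by a pair of cysteines and a pair of histidines. Most mouse genes with high Zfp numbers arose by tandem duplication, lie in clusters of similar copies and encode KRAB zinc finger proteins, which recruit the corepressor TRIM28 and the H3K9 methyltransferase SETDB1 to transposable elements and imprinted loci. H4K20me1 is laid down by KMT5A, and KMT5B converts it to H4K20me2. Serine 2 phosphorylation marks elongating polymerase.

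Scores are coverage over each peak that the authors normalised by spike-in, with DNA of S2 cells (a fly line) added to the libraries. They were summed over the peaks listed with a gene and compared with limma on log2(score + 1). A gene was called where its Benjamini-Hochberg adjusted p was under 0.1 and its log2 fold change was beyond 0.5. Over the whole H4K20me1 table the Ctrl libraries summed to 15218720 and 20432644, the Kmt5b sKO libraries to 32194136 and 35046570. For Pol II S2P the sums were 3257665 to 4885638 in the 4 libraries, with library 1 of Kmt5b sKO highest. The median log2 fold change over all genes tested was 1.11 (H4K20me1) or 0.09 (Pol II S2P), the values against which the changes below are read. Kmt5b itself had Ctrl H4K20me1 scores of 1332 and 1740 against 1934 and 2196 in Kmt5b sKO (log2 fold change 0.44 ± 0.27 SE, limma adjusted p = 0.12, not called), and its Pol II S2P scores of 24, 62, 48 and 22 were too low to test. Neither measures the deletion. Of the satellite cell markers, Pax7, Myod1, Itga7, Des, Sdc4 and Vcam1 were listed for Pol II S2P, 6 of 8, with summed scores of 4220 to 6292 per library. Myf5 and Cdh15 were not. Myod1 had 1329 and 1110 in Ctrl against 887 and 649 in Kmt5b sKO, and was not called. With libraries scaled to equal totals it was called lower, where 0.855% of all genes were. Markers of other cells of muscle were listed for Pol II S2P in 2 of 4 fibro-adipogenic, 2 of 4 endothelial, 1 of 4 blood and 2 of 3 pericyte genes. None of Pdgfra, Ly6a, Cdh5, Kdr, Ptprc, Adgre1, Itgam and Kcnj8 was among the listed markers of other cells. Their summed Pol II S2P scores were 340 to 583, 133 to 256, 840 to 1308 and 306 to 393 per library. The blood sum was Cd68 alone (863 and 952 in Ctrl, 1308 and 840 in Kmt5b sKO), a macrophage gene, and Col3a1, a fibroblast collagen gene, ran from 268 to 501. For H4K20me1, 6 of 8 satellite cell, 2 of 4 fibro-adipogenic, 4 of 4 endothelial, 2 of 4 blood and 3 of 3 pericyte genes were listed. The part of cells other than satellite cells in the results was not tested.

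The tables hold a minority of the family. GENCODE M21 annotates 127 autosomal protein-coding genes in this number range. The tables list 43 under their Zfp symbol, 14 more under an equivalent Znf symbol (Znf787 and Znf710 among them, which were kept apart since the rule names Zfp) and 70 without a peak. A listed H4K20me1 peak was present for 24.4% of the 127 genes, 48.9% of the 231 annotated genes Zfp1 to Zfp699 and 55.5% of all 20807 autosomal protein-coding genes. For Pol II S2P the shares were 34.6%, 64.1% and 46.2%. A peak is listed with 1 gene at most, and 8 of the 70 genes without a listing lay under an H4K20me1 peak that carried a neighbour's name or none. Zfp867 shared a 27600-bp peak with Znf496, Zfp786 shared one with Zfp398, and Zfp750 and Zfp839 lay inside peaks of 94800 and 101200 bp listed with Tbcd and Tecpr2. The other 62 unlisted genes were overlapped by neither mark.

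Genes without a peak were on average less unique in sequence. Because only unique alignments were kept, the share of 75-base windows of each gene that occur once in the GRCm38 chromosomes was computed. Its median was 97.6% in the 43 genes, 99.3% in the 14 with a Znf symbol and 86.5% in the 70 without a peak, against 100% over all autosomal protein-coding genes. Windows were taken every 10 bases in this family and every 1000 in other genes. Shares over all genes are therefore coarser, here and at the 90% limit below. Still, 30 of the 70 were at 90% or more. Of the 19 genes under 50% unique, H4K20me1 overlapped 0 and Pol II S2P 1. That gene was Zfp960, with 17.9% unique windows. Among the 79 genes at 90% or more, H4K20me1 overlapped 51.9% and Pol II S2P 49.4%, whereas the shares for all autosomal protein-coding genes at that level were 77.6% and 53.9%. The part of sequence uniqueness in the missing peaks was not tested.

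**Figure D1:**
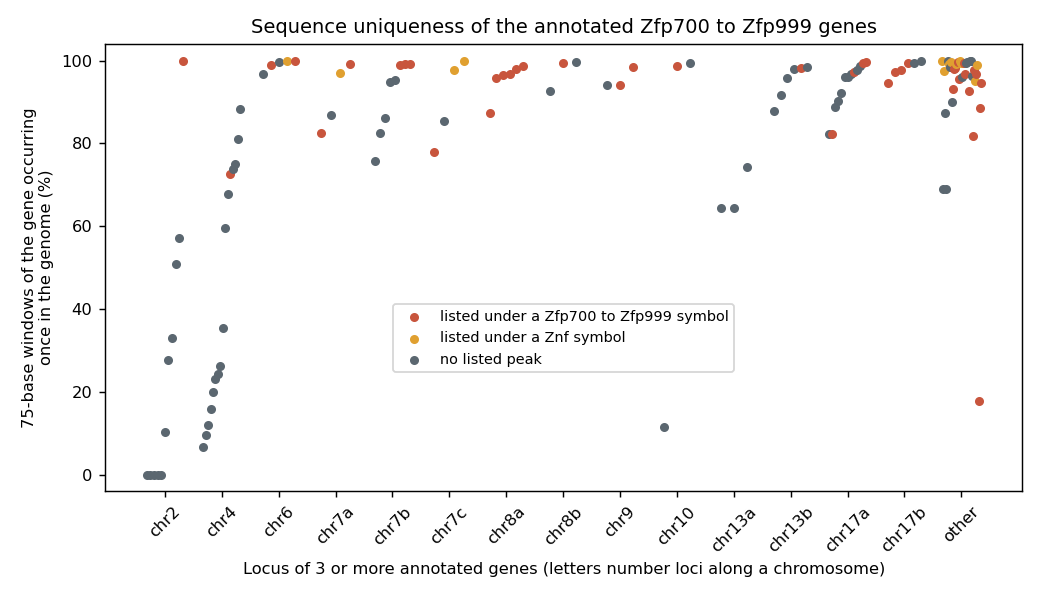
Share of 75-base windows that occur once in the genome (vertical axis, %) for each of the 127 annotated genes, grouped by locus along the horizontal axis and coloured by listing in the tables. On chromosomes 2 and 4 most genes without a listed peak lie below 50%, whereas all 6 genes of the first chromosome 8 locus lie between 87.2% and 98.7% and are listed.

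The loci differed widely. On chromosome 2, 11 annotated genes spread over 3435 kb had a median unique share of 10.3%, and Zfp831 (99.8% unique) was the only 1 listed. On chromosome 4, 16 genes within 2338 kb had a median of 30.9%, no H4K20me1 peak was centred in the span, and Zfp933 was the only gene listed, for Pol II S2P. Loci of high uniqueness also had genes without a listing. The 6 genes in chr13:67038596-67687071 had a median of 96.9%, and the span held no H4K20me1 peak and 10 Pol II S2P peaks, with Zfp708 the gene listed. In chr17:21567008-22867134, 9 of 13 genes had no listing at a median of 96.1%, beside 3 H4K20me1 and 3 Pol II S2P peaks centred there. H4K20me1 peaks covered 2.06% of that chromosome 17 span and 51.0% of the chromosome 6 span with Zfp956 and Zfp777, beside 24.7% of all autosomes.

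H4K20me1 over the 21 listed genes was higher in Kmt5b sKO for nearly all of them, to about the degree seen genome-wide. It rose in 19 of 21, where 92.3% of all 13750 genes tested were called higher, and no gene fell. Both Kmt5b sKO libraries lay above both Ctrl libraries in 20 of 21, against 96.5% of all genes. The median log2 fold change was 0.96 in the 21 genes (interquartile range 0.72 to 1.27), 1.09 in 59 genes Zfp1 to Zfp699 and 1.09 in all protein-coding genes, and 8 of the 21 lay above the median gene and 13 below it. With all libraries scaled to equal totals, 4 of the 21 were called higher and 1 lower, where 24.0% and 4.31% of all genes were called. These shares are near the background on both scales. With a library left out, fewer of the 21 genes were called in most fits. Each such fit leaves 1 library in a group, so only its effect sizes are given below.

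**Figure D2:**
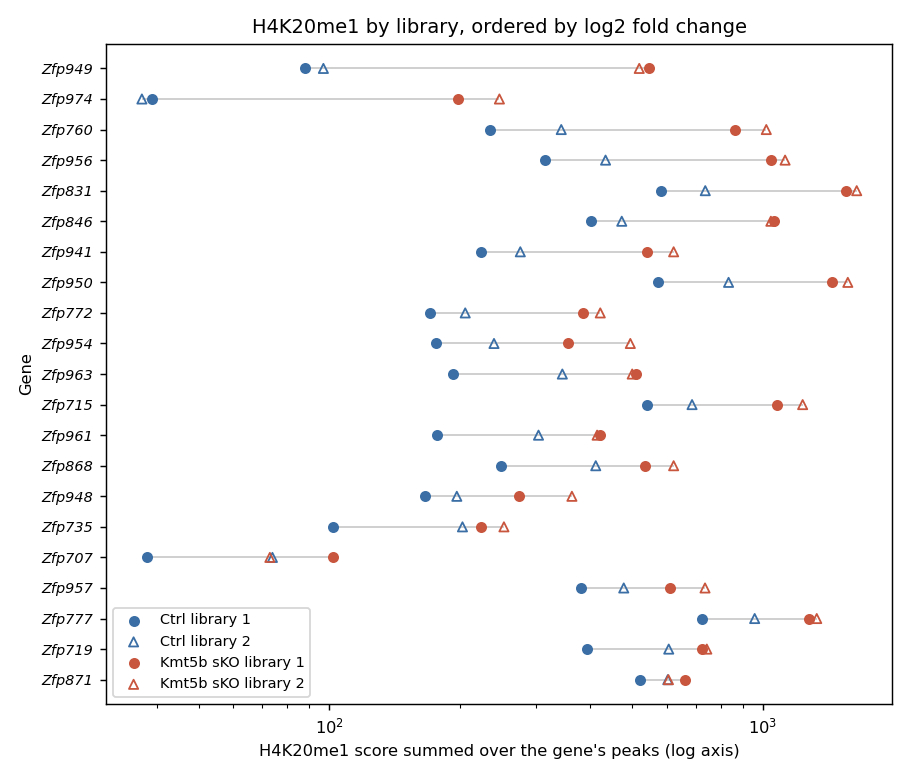
H4K20me1 score of each listed gene (horizontal log axis) in 2 Ctrl libraries (blue) and 2 Kmt5b sKO libraries (red), filled circles for library 1 and open triangles for library 2, ordered by log2 fold change. Red lies to the right of blue in every row except Zfp707, where library 2 of Kmt5b sKO (73) falls just below library 2 of Ctrl (74).

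Zfp949 on chromosome 9, which encodes 11 finger motifs, had H4K20me1 at 88 and 97 in the Ctrl libraries, against 548 and 519 in Kmt5b sKO. The groups were far apart, and the log2 fold change was 2.52 ± 0.32 (SE, limma adjusted p = 3.23e-13). Zfp974 on chromosome 7, with 21 finger motifs, had 39 and 37 in Ctrl against 198 and 247 in Kmt5b sKO, a change of 2.51 ± 0.45 from the lowest Ctrl score per kb of the 21 genes. It met the minimum mean of 50 only through Kmt5b sKO (Ctrl mean 38), so its change is given as a description. Both rose by 1.40 more than the median gene, and both remained called with equal totals at 1.59. Neither gene has H4K20me1 over its fingers, since its single peak covers the gene start. Most of the Zfp949 peak lies outside the gene, since the fraction of its length inside is 0.3. For Zfp974 that fraction is 0.6.

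Zfp760 and Zfp956 followed. Zfp760 had 235 and 343 in Ctrl and 861 and 1019 in Kmt5b sKO (log2 fold change 1.72 ± 0.27, adjusted p = 2.95e-09). Zfp956 had 314 and 434 against 1046 and 1126 (1.55 ± 0.27, adjusted p = 5.17e-08). Both genes carry a pair of peaks, and in each gene the peak over the start and the peak over the end were higher in both Kmt5b sKO libraries. For Zfp956 the start peak scored 166 and 208 in Ctrl and 598 and 635 in Kmt5b sKO, and most of it lies outside the gene, since the fraction of its length inside is 0.2. For the start peak of Zfp760 that fraction is 0.3. These 4 genes were the ones called higher with equal totals.

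At the other end, Zfp871 on chromosome 17 had 521 and 604 in Ctrl and 661 and 606 in Kmt5b sKO, so that the groups nearly touched. Its change of 0.17 ± 0.27 was not called (adjusted p = 0.52), it lay 0.94 below the median gene, and with equal totals it was the 1 gene called lower (-0.75, adjusted p = 1.05e-06). Zfp719 had 393 and 607 against 724 and 743 (0.59 ± 0.27, adjusted p = 0.032). Zfp777 had 724 and 958 against 1277 and 1332 (0.65 ± 0.27, adjusted p = 0.019), and Zfp957 had 380 and 478 against 610 and 736 (0.65 ± 0.27, adjusted p = 0.018). These 3 rose on the deposited scale by less than the median gene and had negative values with equal totals. Zfp707 was the other gene not called, at 38 and 74 in Ctrl and 102 and 73 in Kmt5b sKO.

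**Figure D3:**
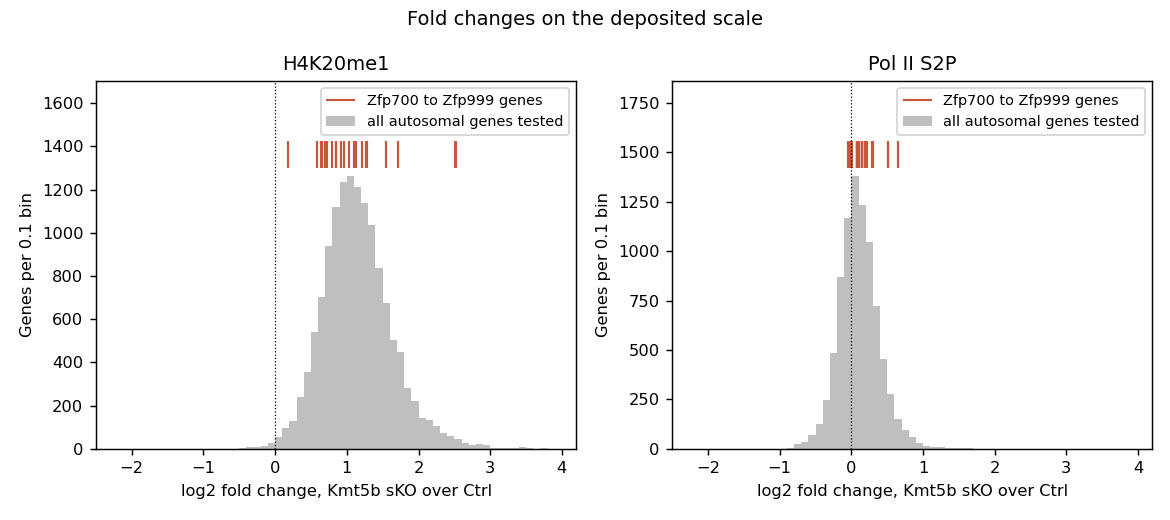
Number of autosomal genes (vertical axis, per bin of 0.1) by log2 fold change of Kmt5b sKO over Ctrl on the deposited scale (horizontal axis) for H4K20me1 (left) and Pol II S2P (right), with red ticks for the zinc finger genes tested. The ticks lie within both histograms, and the largest H4K20me1 values belong to Zfp949 (2.52) and Zfp974 (2.51).

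Levels were compared between genes per kb of gene, because longer genes hold more peak. The 21 genes had a median H4K20me1 score per kb of 15.2 and 19.2 (Ctrl) against 36.3 and 42.3 (Kmt5b sKO). Over all listed protein-coding genes it was 18.2, 23.9, 43.3 and 46.8 in the same order, so the zinc finger genes were somewhat lower in each library, by a ratio of 0.84 over the 4 libraries. Summed per gene without regard to length, 18 of 21 lay below the median listed gene, and per kb 13 of 21 did. The highest Ctrl scores per kb were those of Zfp719 (36.7), Zfp715 (35.9), Zfp777 (34.0) and Zfp963 (32.3). The lowest was that of Zfp974 (1.72).

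The marks differed in position along the genes. A Pol II S2P peak lay within 500 bp of the annotated start in 31 of 33 genes (93.9%), beside 77.6% of 85 genes Zfp1 to Zfp699 and 54.2% of 9555 protein-coding genes listed for Pol II S2P. One peak was all that was listed for 29 of the 33 genes (87.9%). The share with a single peak was 60.0% in Zfp1 to Zfp699, 27.3% in the 11 genes spelt Znf and 39.7% in the protein-coding genes. Only Zfp869 had a Pol II S2P peak at its gene end (3.03%, beside 15.9%), a peak of 201 bp. Its start and end are the listed ones here, and no Pol II S2P peak overlapped its GENCODE M21 model. H4K20me1 reached the annotated start in 6 of 21 genes (28.6%, beside 49.8% of protein-coding genes and 54.2% of Zfp1 to Zfp699) and the end in 14 of 21 (66.7%, beside 61.7% and 66.1%). The genes are shorter than most, at a median of 17.6 kb against 27.2 kb for those listed for Pol II S2P, and what length contributes to these shares was not tested.

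**Figure D4:**
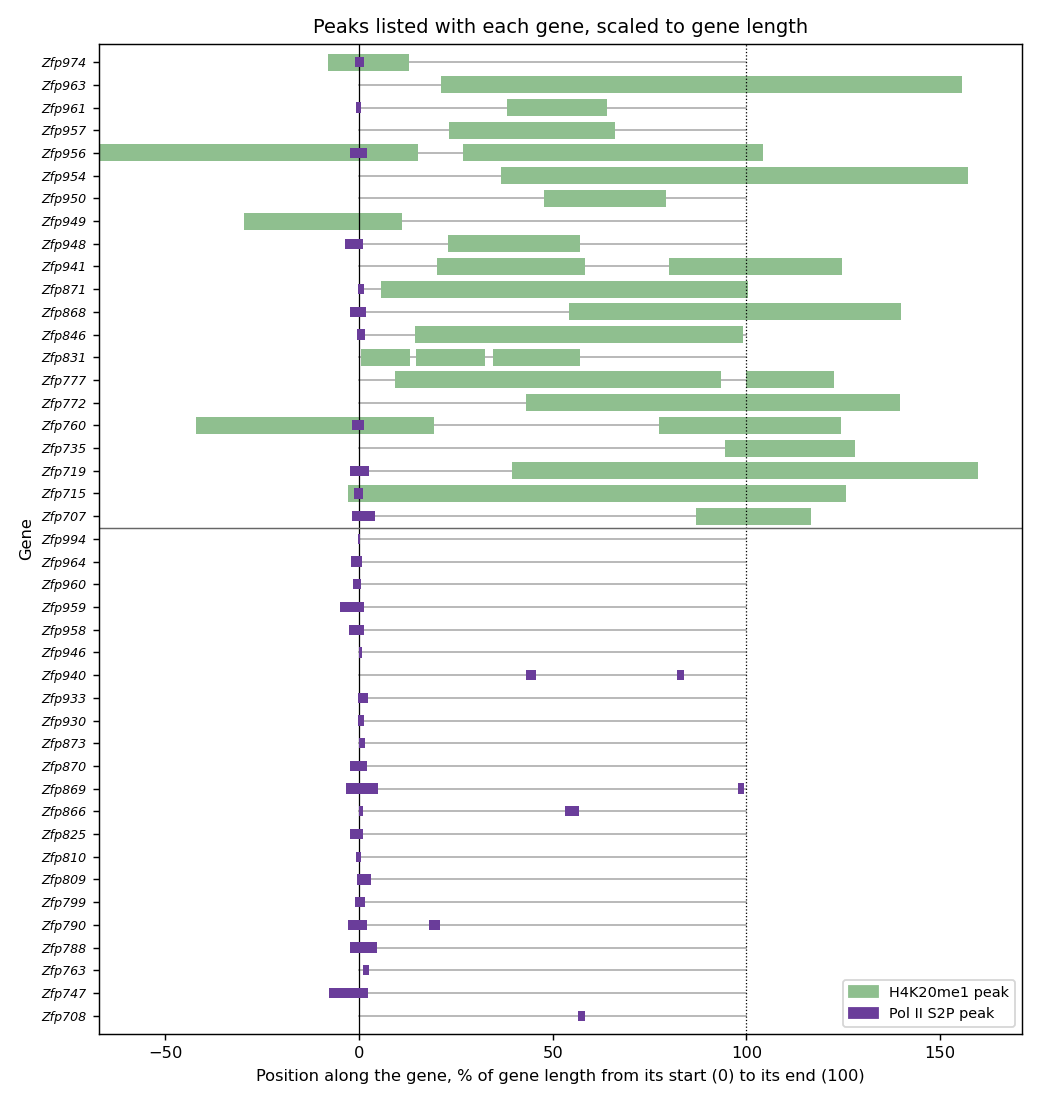
Peaks listed with each of the 43 genes along a horizontal axis of gene length from start (0%) to end (100%), H4K20me1 in green and Pol II S2P in purple, with the 21 genes listed for H4K20me1 above the horizontal line. Purple peaks sit at 0% in 31 of 33 genes, whereas green peaks reach the start in 6 of 21 and the end in 14 of 21.

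The fingers were located in the coding sequence. Translation of the longest annotated coding sequence gave a median of 11 C2H2 finger motifs (range 0 to 23), highest in Zfp788 with 23 and Zfp974 with 21, and Zfp957 had none at the spacing searched. In 12 of the 20 H4K20me1 genes with a finger the whole finger-coding stretch lay inside an H4K20me1 peak, in 2 it did so in part and in 6 not at all. The counts for Zfp1 to Zfp699 were 33, 7 and 18 of 58. Zfp871 carries 15 fingers under a single peak of 21600 bp, while the peaks of Zfp948 and Zfp950 lie in the gene away from their fingers. Pol II S2P reached the finger-coding stretch in 1 of 33 genes, Zfp940, in part. The tables give 1 score per peak, so no profile inside a peak could be read.

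The windows before the start sites where Pol II S2P sat are shown for the 5 highest genes whose 250 bases before the RefSeq start (GRCm38.p6) hold no annotated exon, and for Zfp949, the gene with the largest H4K20me1 change. Each is written 5′ to 3′ on the gene's strand, and capitals mark CCAAT and GGGCGG on either strand. The windows are chr8:69716903-69717152 (minus strand) for Zfp869, chr8:69774912-69775161 (minus) for Zfp866, chr7:29815822-29816071 (plus) for Zfp790, chr17:21566728-21566977 (plus) for Zfp948, chr8:69625549-69625798 (minus) for Zfp868 and chr9:88547770-88548019 (plus) for Zfp949.
Zfp869: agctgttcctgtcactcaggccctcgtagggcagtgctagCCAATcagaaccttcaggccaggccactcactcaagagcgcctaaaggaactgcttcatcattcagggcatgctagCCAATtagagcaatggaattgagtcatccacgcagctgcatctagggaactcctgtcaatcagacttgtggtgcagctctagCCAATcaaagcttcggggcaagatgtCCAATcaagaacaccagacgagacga
Zfp866: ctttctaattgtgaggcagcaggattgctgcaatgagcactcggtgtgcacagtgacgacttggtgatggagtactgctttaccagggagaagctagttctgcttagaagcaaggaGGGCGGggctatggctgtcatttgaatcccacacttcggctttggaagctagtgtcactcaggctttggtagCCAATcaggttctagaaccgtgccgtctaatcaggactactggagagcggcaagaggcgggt
Zfp790: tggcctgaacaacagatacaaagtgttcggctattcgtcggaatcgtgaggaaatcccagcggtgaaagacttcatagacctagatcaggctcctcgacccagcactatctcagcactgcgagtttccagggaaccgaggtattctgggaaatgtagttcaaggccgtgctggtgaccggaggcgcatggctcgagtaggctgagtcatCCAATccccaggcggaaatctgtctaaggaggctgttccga
Zfp948: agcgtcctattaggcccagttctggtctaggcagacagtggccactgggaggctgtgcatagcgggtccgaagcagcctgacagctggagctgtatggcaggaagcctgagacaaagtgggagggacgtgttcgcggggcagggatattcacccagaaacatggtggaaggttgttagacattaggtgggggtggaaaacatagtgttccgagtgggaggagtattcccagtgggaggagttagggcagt
Zfp868: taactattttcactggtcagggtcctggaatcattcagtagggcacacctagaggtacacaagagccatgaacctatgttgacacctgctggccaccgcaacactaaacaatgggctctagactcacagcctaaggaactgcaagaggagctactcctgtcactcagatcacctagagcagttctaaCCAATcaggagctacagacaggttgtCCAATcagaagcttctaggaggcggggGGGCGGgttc
Zfp949: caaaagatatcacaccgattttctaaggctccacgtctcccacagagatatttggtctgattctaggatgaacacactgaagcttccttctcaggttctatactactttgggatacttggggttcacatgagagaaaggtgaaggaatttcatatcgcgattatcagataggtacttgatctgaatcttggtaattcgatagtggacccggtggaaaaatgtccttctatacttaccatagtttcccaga

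Zfp869 held 4 copies of CCAAT, Zfp868 held 2, Zfp866 and Zfp790 held 1 each, and Zfp948 and Zfp949 held none. RefSeq gave windows for 38 of the 43 genes, and 1 was used per gene. For these genes a window under a Pol II S2P peak was taken first, and otherwise the first listed. Other genes had the first listed window, so the windows compared were not chosen alike. Of the 38 windows, 26 (68.4%) held CCAAT on either strand, the letters of the NF-Y box. The share was 46.9% in 81 genes Zfp1 to Zfp699, 35.2% in 10778 listed protein-coding genes and 34.3% in 25748 autosomal genes with a window. GGGCGG, the core of the GC box, was found in 36.8% of the 38 windows against 55.6% of the listed protein-coding genes, TATAAA in 5.26% against 7.29%, and CCGGAAG in 7.89% against 11.8%. The 38 windows held a median of 8 CpG dinucleotides and 52.0% G or C, beside 14 and 59.2% in the listed protein-coding genes. A Pol II S2P peak overlapped the window in 25 of the 29 genes that had both a window and a Pol II S2P listing. The choice of window favoured such an overlap, so this count is not an independent measure. Zfp708 and Zfp866 were among the 25, and their main peak lies inside the GENCODE gene but over the RefSeq start.

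Summed Pol II S2P was low over most of the 33 genes and no gene was called. Mean scores over the 4 libraries ran from 19 to 443, with a median of 68.0, and 28 of 33 lay below the median listed protein-coding gene. Per kb, 18 of 33 did. A mean over 50 was required for testing, and 24 genes passed while 9 did not. On the deposited scale 0 of the 24 were called higher, where 0.0% of 8531 genes were, and 0 were called lower, again with a background of 0.0%. At an unadjusted limma p under 0.05 the counts were 0 of the 24 and 100 of all genes. With equal totals 0 of 23 were called higher and 0 lower, where 1.26% and 0.855% of all genes were called. The SE of single genes was 0.41 to 0.54 on the log2 scale. Over all protein-coding genes tested, log2 fold changes ran from -1.68 to 2.24 and none was called on the deposited scale. With 2 libraries a group, changes well beyond the SE could therefore go uncalled.

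Zfp869 was highest in Pol II S2P, at 393 and 461 in Ctrl against 539 and 378 in Kmt5b sKO. The Kmt5b sKO values lay on both sides of the Ctrl values, and the difference was 0.08 ± 0.42 on the log2 scale (SE, limma adjusted p = 1). Its coordinates in the table, chr8:69702656-69716983, differ from its GENCODE M21 model and overlap Gm20422, so the signal of both genes cannot be told apart. The GENCODE M21 model, chr8:69706332-69710724, was overlapped by no Pol II S2P peak. Zfp788, with 23 fingers, had 241 and 309 against 332 and 277. Zfp866 had 282 and 294 against 324 and 242.

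The order of the next genes was close. Zfp790 had 191 and 205 in Ctrl and 274 and 194 in Kmt5b sKO. Zfp948 had 172 and 162 in Ctrl and 220 and 188 in Kmt5b sKO, 1 of the 3 listed genes with both Kmt5b sKO libraries above both Ctrl libraries. Among the tested genes that order was met by 2 of 24, Zfp948 and Zfp715, where 9.41% of all genes tested met it, and the opposite order by 0 of 24 against 4.52%.

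**Figure D5:**
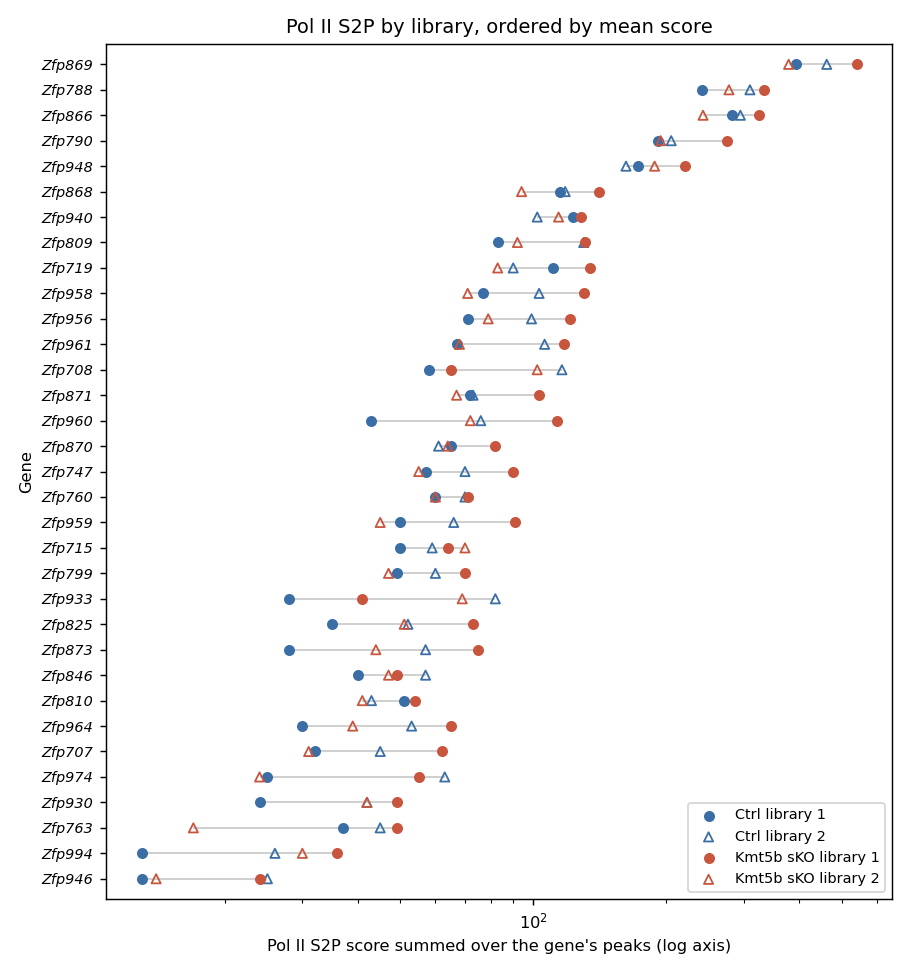
Pol II S2P score of each of the 33 listed genes (horizontal log axis) in 2 Ctrl libraries (blue) and 2 Kmt5b sKO libraries (red), filled circles for library 1 and open triangles for library 2, ordered by mean score. The colours interleave in nearly every row, and library 1 of Kmt5b sKO is the highest point in 27 of 33.

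Of the 24 log2 fold changes, 21 were above 0 and 3 below, with a median of 0.15 and a range of -0.04 to 0.65. With equal totals the median was 0.01 and 12 of 23 were above 0. The values above 0 moved with library 1 of Kmt5b sKO, which has the highest summed score, and its part in them was not tested. The largest value was that of Zfp960 (43 and 76 in Ctrl, 113 and 72 in Kmt5b sKO, 0.65 ± 0.47), the gene with 17.9% unique windows. Zfp873 (28 and 57 against 75 and 44) and Zfp825 (35 and 52 against 73 and 51) were at 0.51 each. Both met the minimum mean only through Kmt5b sKO, and Zfp873 fell under it with equal totals. The smallest were Zfp866 (-0.04), Zfp868 (115 and 118 against 141 and 94, -0.02) and Zfp708 (58 and 116 against 65 and 102, -0.01). Zfp809, known to silence retroviruses through their primer binding site, had 83 and 130 in Ctrl and 131 and 92 in Kmt5b sKO.

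The 11 genes with both marks allow the changes to be set side by side in the same genes. Zfp974 had Pol II S2P at 25 and 63 in Ctrl against 55 and 24 in Kmt5b sKO, too low to test, beside the H4K20me1 change of 2.51. Zfp760 had 60 and 70 against 71 and 60 (0.01 ± 0.48), and Zfp956 had 71 and 99 against 121 and 79 (0.22 ± 0.44). Zfp871, lowest in H4K20me1 change, had 72 and 73 against 103 and 67 (0.19 ± 0.46). In these 4 the Pol II S2P groups overlapped. Of the 11 genes, Zfp948 and Zfp715 (50 and 59 against 64 and 70) had both Kmt5b sKO libraries above both Ctrl libraries. Of all genes tested for Pol II S2P, 9.41% met that order. Both genes were called higher for H4K20me1, as were 92.3% of all genes. With equal totals the Pol II S2P groups overlapped in both.

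By position, 14 of the 43 genes form 3 clusters of at least 3 genes with neighbours within 1 Mb. The cluster at chr8:69209038-69791178 holds Zfp930, Zfp868, Zfp964, Zfp869, Zfp963 and Zfp866. All peaks centred in its span, whichever gene they were listed with, summed for H4K20me1 to 1032 and 1450 in Ctrl against 2347 and 2417 in Kmt5b sKO, over 54.6 kb of peak. That is a log2 ratio of 0.94, beside 0.97 for all autosomes. Zfp868 had the highest H4K20me1 score among its members, at 249 and 412 against 534 and 623. Of the 3 clusters it had the most Pol II S2P, with 193 and 233 per kb of peak in Ctrl against 266 and 184 in Kmt5b sKO, where all autosomal peaks had 126, 165, 190 and 133.

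The cluster at chr17:21567008-22456689 holds Zfp948, Zfp760, Zfp994 and Zfp946 and H4K20me1 peaks cover 3.01% of it. Those peaks summed to 401 and 540 in Ctrl against 1135 and 1382 in Kmt5b sKO, a log2 ratio of 1.42, and Zfp760 supplied most of it. The cluster at chr17:32765496-33033402 holds Zfp871, Zfp799, Zfp870 and Zfp763. It had 909 and 1081 against 1828 and 1791, a log2 ratio of 0.86, with Zfp871 highest. Per kb of peak, H4K20me1 was 18.6 and 22.1 in Ctrl and 37.3 and 36.6 in Kmt5b sKO there, below the 22.3, 29.8, 48.8 and 53.1 of all autosomes in each library, as in the other clusters (18.9, 26.6, 43.0 and 44.3 on chromosome 8, and 14.96, 20.1, 42.4 and 51.6 in the first chromosome 17 cluster). Clusters have 1 value per library, and no test was made between them.

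The partners of KRAB zinc finger proteins were described from a list of 24 corepressor genes. H4K20me1 was listed for 18, of which 13 rose and none fell, where 92.3% of all genes were called higher, with a median log2 fold change of 0.71 that lies below the median gene. With equal totals none of the 18 was called higher, where 24.0% of all genes were. Morc3, Ehmt2 and Sumo2 were called lower, where 4.31% of all genes were. Pol II S2P was tested in 16 and none was called. Trim28, which encodes the scaffold that KRAB domains bind, had Pol II S2P at 496 and 552 in Ctrl against 591 and 373 in Kmt5b sKO. Setdb1 had 71 and 80 against 115 and 78 for Pol II S2P, and 879 and 1190 against 1707 and 1872 for H4K20me1 (0.80 ± 0.27, limma adjusted p = 0.0040). With equal totals 1 gene was called for Pol II S2P, the chromatin remodeller Chd3, at 364 and 376 in Ctrl and 352 and 234 in Kmt5b sKO (-0.50, limma adjusted p = 0.089). Of all genes 0.855% were called lower on that scale.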

How the data were processed

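H4K20me1 and Pol II S2P CUT&RUN were analysed in 8 libraries, 2 for each genotype and antibody. IgG controls were not used here. Before deposit, the authors trimmed reads (Trimmomatic 0.39), aligned them to mm10 (GRCm38) with STAR 2.7.3a, kept unique alignments, removed duplicates with Picard 2.21.7, unified the peaks of each antibody over its libraries and normalised coverage by spike-in. The deposited values are whole-number scores per union peak, not read counts. The study gives reads per library, with more for both H4K20me1 libraries of Kmt5b sKO than for both of Ctrl. Those depths were not used here. A second deposited column holds the fraction of a peak's length that lies in its gene. The submitters' processing notes name MACS2 2.1.1 and SICER 0.0.41, and which of them made which table is not given in the sources used here.

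Scores were summed by gene identifier. A trailing semicolon was removed from the symbol of 3 genes. Genes with a mean over 50 were tested with limma 3.58.1 (trended eBayes, R 4.3.3) on log2(score + 1) over autosomes, 13750 (H4K20me1) and 8531 (Pol II S2P). The fit was also run on simulated scores in which few genes changed, in both directions. That setting lacks the shared H4K20me1 rise, so it cannot show how calls behave in these data. With 2 against 2 libraries an exact permutation test cannot go below p = 0.333. Same-numbered libraries were not treated as pairs. Their deviations, centred on the median, correlated at 0.041 (H4K20me1) and -0.043 (Pol II S2P). Centring removes a shift shared by all genes, so these values cannot show whether libraries were prepared in pairs.

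Window uniqueness was computed every 10 bases in the annotated family and every 1000 in other genes on 21 chromosomes. Fingers were counted from GENCODE M21 coding sequence as a cysteine pair and a histidine pair 12 residues apart. The coordinates of 42 of 43 genes equal GENCODE M21, and that of Zfp869 differs.

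The genes named were the 4 largest and 4 smallest H4K20me1 changes, the 4 highest Ctrl H4K20me1 scores per kb, the 5 highest Pol II S2P scores, the 3 largest and 3 smallest Pol II S2P changes, the gene highest in H4K20me1 in each cluster, Kmt5b, Trim28, Setdb1 and corepressor genes called for Pol II S2P. Others were named after their values were seen, as examples. The genes and lists were chosen with earlier results of these data known.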

Additional observations from a re-analysis of the deposited data

Results flagged for a closer look

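Zfp711 has a number in the range studied but lies on the X chromosome, outside the autosomal comparisons. It was flagged because it had been left out of the analysis. H4K20me1 there, over 2 peaks, was higher in both Kmt5b sKO libraries (332 and 250, mean 291) than in both Ctrl libraries (137 and 234, mean 186). Of all autosomal genes tested, 96.5% met that order. The log2 ratio of the means was 0.65, beside a median log2 fold change of 1.11 over those genes, and no test was made.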

How the results depend on the processing

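Scaling moved the H4K20me1 results most. With equal totals, 4 of 21 zinc finger genes were called higher and 1 lower, at a median log2 fold change of 0.037, and with quantile normalisation 2 were called higher and 5 lower, at a median of -0.27. Of the 21 genes 11 stayed positive with equal totals, and of those named by rule values turned negative for Zfp715 (-0.0080), Zfp871 (-0.75), Zfp719 (-0.34), Zfp868 (-0.081), Zfp948 (-0.13), Zfp957 (-0.28) and Zfp777 (-0.28). With quantile normalisation they were -0.22, -1.03, -0.62, -0.41, -0.53, -0.58 and -0.45 in the same order, and -0.31 for Zfp963. These scalings remove a change shared by all genes by construction. Cluster log2 ratios with equal totals were 0.032 (chromosome 8), 0.50 (chromosome 17 from 21567008) and -0.062 (chromosome 17 from 32765496).

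With a library left out, 7 to 20 of 21 genes were called higher and the median lay between 0.75 and 1.24. The lone library of a group is then assumed to vary like the other group. The chromosome 8 cluster ranged from 0.72 to 1.21, the chromosome 17 cluster from 21567008 from 1.22 to 1.65, and the chromosome 17 cluster from 32765496 ranged from 0.74 to 0.99. The H4K20me1 per-kb ratio to all protein-coding genes (0.84) ranged from 0.84 to 0.90 and was 0.97 with peaks at least 50% in the gene. The Pol II S2P ratio (0.75) was then 0.82.

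Over all genes, H4K20me1 calls were 12690 higher and 0 lower, against 3306 and 593 with equal totals and 1426 and 1526 with quantile normalisation. Pol II S2P calls were 0, against 108 higher and 73 lower with equal totals and 112 and 29 with quantile normalisation. They were 5 and 1 without the trend, and 1 higher with a minimum of 10 or none. With the replicate number as a block, 19 of 21 genes were called higher in H4K20me1, 0 of 24 were called in Pol II S2P, and no call on the genes named changed. The cause of the other shifts was not tested. Scores are not read counts, which limits what can be said of low genes.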

Other observations

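H4K20me1 changes could be read by where the peak lies, a split made after the values were seen. The 6 genes with a peak at the annotated start (Zfp760, Zfp831, Zfp956, Zfp974, Zfp715 and Zfp949) had a median log2 fold change of 1.64, with a range of 0.92 to 2.52. The 15 genes without one had a median of 0.85 and a range of 0.17 to 1.27. Over all listed protein-coding genes the medians were 1.12 in 5712 genes with a peak at the start and 1.06 in 5763 genes without, and in Zfp1 to Zfp699 they were 1.17 in 32 genes and 1.0 in 27. The difference was not tested. Zfp974 met the minimum mean only through Kmt5b sKO, so it adds no support to the split. The start peaks of Zfp949, Zfp760 and Zfp956 lie mostly outside the gene, with fractions inside of 0.3, 0.3 and 0.2.

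The 14 genes in this number range that the tables spell Znf had higher median levels, with ranges that overlap and no test made. Their median H4K20me1 score per kb was 37.4 in Ctrl and 66.1 in Kmt5b sKO over 10 genes. Of these, 10 of 10 rose, where 92.3% of all genes were called higher. With equal totals 1 of 10 was called higher, where 24.0% of all genes were. Their median Pol II S2P score per kb was 10.1 in Ctrl and 9.85 in Kmt5b sKO over 11 genes. Znf787, for example, had Pol II S2P at 779 and 974 in Ctrl against 1097 and 747 in Kmt5b sKO.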
